A study of Homo sapiens with 6 samples.

Results

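Interleukins and the tumour necrosis factor (TNF) superfamily are the cytokines through which immune and epithelial cells signal to each other, and the genes described here encode these ligands, their receptors and their inhibitors. They were found by symbol: every gene whose listed symbol began with IL and a digit, with TNFSF or with TNFRSF, or was TNF, LTA, LTB, CD40, FAS, CSF1, CSF2 or CSF3. The rule found 39 of the 6018 genes in the table used here, namely 11 ligands, 24 receptors, 1 receptor antagonist (IL1RN), 1 enzyme named for its inducer (IL4I1) and 2 pseudogenes (IL6STP1 and IL9RP3). LTB, CD40, CSF2 and CSF3 had no row.

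The series holds 3 RNA sequencing libraries of a subline of C4-2B cells selected by passage in 1 to 20 µM abiraterone for 6 months or more, maintained in 5 µM afterwards, and 3 libraries of the parental C4-2B line, passaged in 1% DMSO. C4-2B is an established human prostate cancer cell line of the LNCaP lineage, obtained by way of C4-2, and abiraterone inhibits the androgen-synthesis enzyme CYP17A1. The medium of both lines held 10% serum, the selected libraries are given as passage 15 to 18 and the parental ones as passage 0, and the labels mention 10 µM abiraterone before extraction without saying clearly whether both lines received it. The selected cells are a single subline, so passage and drug history cannot be told apart from subline. Whether the libraries of each line stem from separate cultures is not said, so the listed errors and p-values may measure technical spread.

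The deposited values are a DESeq2 comparison by the authors between conditions named C and V, with no value per library. The header spells C as control and V as vehicle, and gives positive log2 fold changes to genes higher in C. Titles of parental libraries carry a V and none of the selected ones does, while the series text calls the parental cells the control, so which line C stands for could not be settled. Directions are therefore given for C and V and are not translated into selected or parental. Values written with ± are the listed log2 fold change of C over V and its listed standard error, and a gene counts as called where the adjusted p given for it is below 0.05 (authors' Wald test in DESeq2 with Benjamini-Hochberg adjustment over their genes). Levels on each side are not listed. They were derived as the pair of means, in normalised counts, that gives the listed mean and the listed fold change, with both sides weighted equally, and they have no error of their own. Every listed gene has an unadjusted p under 0.05 and a log2 change of 1.20 or more in either direction, so a gene with no row was not analysed here and nothing is known of its level.

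TNF superfamily ligands are trimers that cluster their receptors, and most of the receptors recruit TRAF adaptors and inhibitor of apoptosis proteins that switch on the transcription factor NF-kB. Receptors with a death domain, such as FAS and TNFRSF1A, can instead activate caspases. Interleukin receptors are mostly pairs of chains that signal through JAK kinases and STAT factors, except for the IL1 and IL17 receptor families, which also feed into NF-kB. In epithelial tissues such as the prostate, several of the receptors are made by the epithelium itself, whereas receptors of the common gamma chain family are best known from lymphocytes.

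Of the 39 members, 36 were called, 5 on the C side (higher there) and 31 on the V side. All 10 called ligands were lower in C than in V, as were 18 of the 22 called receptors. Over all listed genes, 46.0% were called with C higher, 43.4% with V higher and 89.4% in either direction (92.6% of the protein-coding ones), so being called says little about a member. The direction stood further from the rest of the table: 30 of the 37 protein-coding members were called higher in V (81.1%), beside 61.0% of all listed protein-coding genes, and 4 were called higher in C, beside 31.6%. Members were chosen with earlier results of these data known, so this is a description and was not tested. By the means in the authors' deposited table, 7 called members higher in V had a mean of at least 100 normalised counts, and for 12 called members the standard error was above 1 on the log2 scale, all of them with a mean of at most 17.6 normalised counts.

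**Figure D1:**
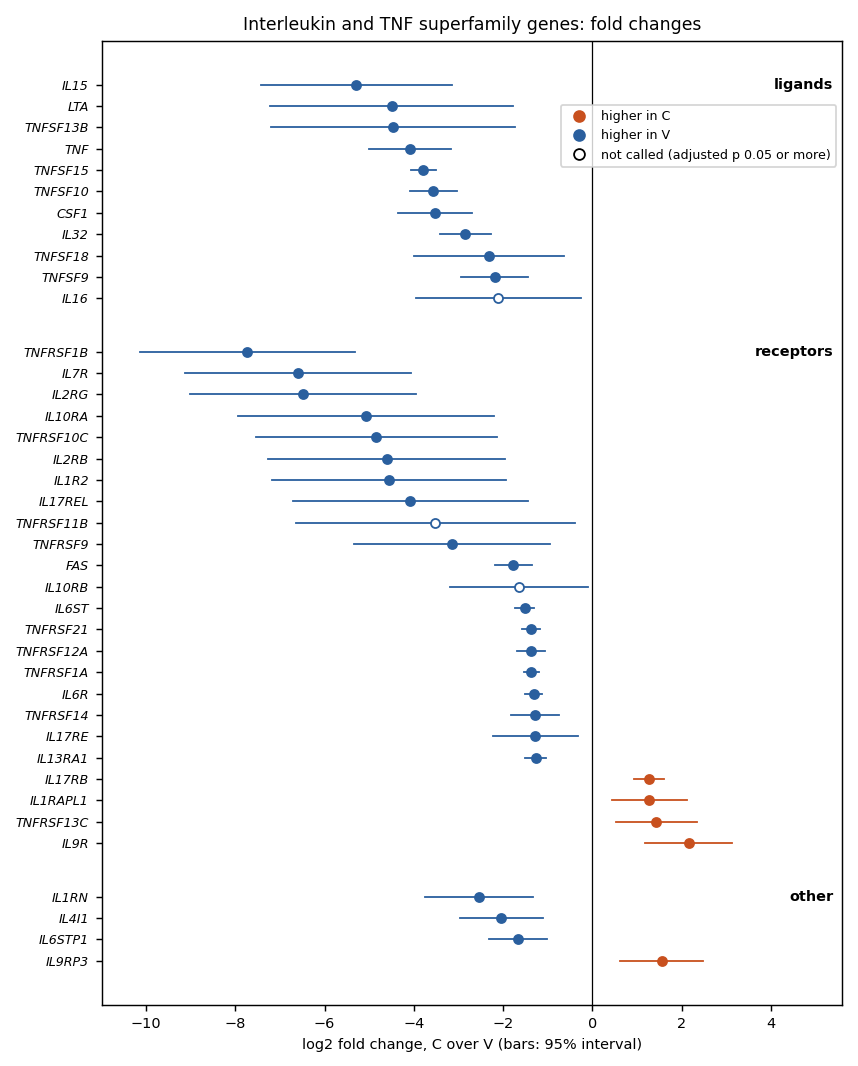
Listed log2 fold change of C over V (x axis) for each of the 39 members (rows), ligands on top, then receptors, then the antagonist, the enzyme and the pseudogenes; bars are 95% intervals from the listed standard error, filled points are called and open points are not. All 11 ligands lie left of 0, and 5 genes lie right of it: IL17RB, IL1RAPL1, TNFRSF13C, IL9R and IL9RP3.

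The promoters of 5 members called higher in V are shown because each carries a match to a binding sequence of a factor family known to switch on cytokine genes. Each line is the 250 bases before a RefSeq transcript start on GRCh38.p14, 5′ to 3′ on the gene's strand, with the match in capitals. The windows are chr9:114792531-114792780 (minus strand) for TNFSF15, chr3:172523431-172523680 (minus) for TNFSF10, chr19:6530776-6531025 (plus) for TNFSF9, chr16:3065153-3065402 (plus) for IL32 and chr1:7940840-7941089 (minus) for TNFRSF9. The capitals mark AP-1 in TNFSF15, the interferon-stimulated response element (ISRE) in TNFSF10 and TNFSF9, NF-kB in IL32, and NF-kB followed by AP-1 in TNFRSF9.
TNFSF15: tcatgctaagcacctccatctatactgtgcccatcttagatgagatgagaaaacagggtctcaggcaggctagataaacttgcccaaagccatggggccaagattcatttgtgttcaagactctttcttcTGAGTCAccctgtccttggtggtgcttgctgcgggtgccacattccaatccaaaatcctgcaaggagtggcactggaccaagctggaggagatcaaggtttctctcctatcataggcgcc
TNFSF10: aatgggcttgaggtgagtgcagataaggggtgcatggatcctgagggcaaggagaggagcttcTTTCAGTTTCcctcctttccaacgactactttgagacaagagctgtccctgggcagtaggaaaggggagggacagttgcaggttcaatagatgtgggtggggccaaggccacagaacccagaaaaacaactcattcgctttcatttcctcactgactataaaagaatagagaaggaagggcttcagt
TNFSF9: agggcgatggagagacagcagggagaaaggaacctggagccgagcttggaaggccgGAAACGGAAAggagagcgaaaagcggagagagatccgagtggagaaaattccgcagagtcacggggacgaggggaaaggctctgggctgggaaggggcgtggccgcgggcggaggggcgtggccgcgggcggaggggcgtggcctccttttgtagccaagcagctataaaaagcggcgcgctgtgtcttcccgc
IL32: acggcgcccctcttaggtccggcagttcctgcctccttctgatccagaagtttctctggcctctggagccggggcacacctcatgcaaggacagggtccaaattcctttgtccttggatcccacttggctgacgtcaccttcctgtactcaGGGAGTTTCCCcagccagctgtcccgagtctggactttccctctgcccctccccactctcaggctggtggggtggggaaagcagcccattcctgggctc
TNFRSF9: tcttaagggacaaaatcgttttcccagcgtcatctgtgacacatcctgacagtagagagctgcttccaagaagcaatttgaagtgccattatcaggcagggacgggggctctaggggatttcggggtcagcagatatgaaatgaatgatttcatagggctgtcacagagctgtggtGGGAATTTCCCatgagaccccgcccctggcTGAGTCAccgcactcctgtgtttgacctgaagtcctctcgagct

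The match begins 120 bases before the start in TNFSF15, 187 before it in TNFSF10 and 194 before it in TNFSF9. For TNFSF15 and TNFRSF9 the start used is an internal one, from the sole promoter entry of each gene. On the minus strand these genes begin at 114806126 and 7943165 in GENCODE, upstream of their windows. The bases before those outer starts were not searched. In IL32 and TNFRSF9 the capitals of the NF-kB match join overlapping matches on both strands. The letters searched, on both strands, were TGANTCA for AP-1, GAAA followed by any 2 bases and GAAA for the ISRE core, and the standard consensus for NF-kB; matches to different motifs did not overlap in any member. Over windows from 250 bases before to 50 bases after the start, promoter entries existed for 30 of the 39 members. There were 41 entries in all because some genes have several starts and IL9R has an entry on X and on Y. The entries missing are those of CSF1, IL15, IL2RB, TNFRSF10C, TNFRSF11B, TNFRSF12A, TNFRSF13C, IL6STP1 and IL9RP3. Among the 34 entries of 25 members called higher in V, 6 (17.6%) held NF-kB, 6 (17.6%) AP-1 and 7 (20.6%) the ISRE core, and 18 (52.9%) held at least 1 of the 3. Of all 35116 entries, 5.91% held NF-kB, 7.71% AP-1 and 3.57% the ISRE core, and 16.3% held at least 1. Matches also occurred outside the members called higher in V: of the 7 remaining entries, of 5 members, 3 (42.9%) held at least 1, namely AP-1 in both entries of IL9R and NF-kB in IL1RAPL1, both called higher in C. The IL9R entries on X and Y hold the same match at the same position, so it is counted more than once among these 7. Entries of a gene with several starts can overlap and are then not independent, as in IL1RN and TNFSF13B, whose ISRE match is counted in more than 1 entry. The window of TNF held none of these letters, nor did those of TNFRSF1A, IL6ST and IL13RA1. These are matches of letters, and no binding was measured.

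Among the ligands, TNFSF15, also called TL1A, was the best determined. The gene (ENSG00000181634) lies at 114784635 to 114806126 on chromosome 9, and TNFSF10 (ENSG00000121858) at 172505508 to 172523507 on chromosome 3 (GENCODE release 29, GRCh38). Derived from the authors' deposited table, TNFSF15 stood at 55.4 normalised counts in C and at 765 in V. The listed change was -3.79 ± 0.15 (adjusted p = 4.42e-143, Wald test in DESeq2), a 13.8-fold lower level in C with a 95% interval of 11.3 to 16.9. It was the sole ligand with a mean of at least 100, and its interval on the log2 scale, -4.08 to -3.50, did not overlap that of any called receptor with a mean of at least 100.

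TNFSF10 encodes TRAIL, a ligand that triggers apoptosis through death receptors, and TNF is the founding member of the family. From the authors' deposited table, TNFSF10 had a derived 13.4 normalised counts in C and 159 in V, with a listed change of -3.57 ± 0.27 (adjusted p = 2.13e-39, Wald test in DESeq2). TNF had 3.83 in C and 64.8 in V, likewise derived from the authors' deposited table, and -4.08 ± 0.47 (adjusted p = 3.62e-17, Wald test in DESeq2). Both were thus more than 10-fold lower in C in the fitted value, and the lower ends of their 95% intervals were 8.26-fold and 8.95-fold. LTA, lymphotoxin alpha, a relative of TNF that binds the same receptors, lies upstream of TNF on chromosome 6, with 1242 bases between the end of LTA and the start of TNF in GENCODE release 29. Its change was -4.49 ± 1.39 in the authors' deposited table, on derived levels of only 0.319 in C and 7.18 in V.

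The remaining TNF superfamily ligands act on lymphocytes in their known roles. TNFSF9, a costimulator of T cells, had derived levels of 8.76 in C and 40.1 in V and a change of -2.19 ± 0.38 in the authors' deposited table (adjusted p = 6.94e-08, Wald test in DESeq2). TNFSF18, another T cell costimulator, stood at 1.73 in C and 8.62 in V (-2.31 ± 0.86 by the authors' deposited table). TNFSF13B, the B cell survival factor BAFF, stood at 0.259 in C and 5.71 in V (-4.46 ± 1.39 by the authors' deposited table). All 7 listed TNF superfamily ligands were called and all 7 were lower in C than in V; their median on the log2 scale was -3.79.

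Of the other ligands, CSF1 and IL32 were measured best. CSF1, the growth factor of macrophages, had derived levels of 6.66 in C and 76.5 in V and a change of -3.52 ± 0.43 in the authors' deposited table (adjusted p = 1.23e-15, Wald test in DESeq2). IL32, an inflammatory cytokine of epithelial and lymphoid cells, had 13.9 in C and 100.05 in V and a change of -2.85 ± 0.29 in the authors' deposited table (adjusted p = 4.52e-21, Wald test in DESeq2). IL15, which sustains natural killer and memory T cells, had 0.663 in C and 25.9 in V (-5.29 ± 1.09 by the authors' deposited table). Its interval ran from 8.91-fold to 172-fold lower in C, so the size of its change is poorly determined. IL16, a chemoattractant that binds CD4, was the sole ligand not called, at 1.53 in C and 6.58 in V with -2.11 ± 0.95 and an adjusted p of 0.0580 in the authors' deposited table (Wald test in DESeq2).

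**Figure D2:**
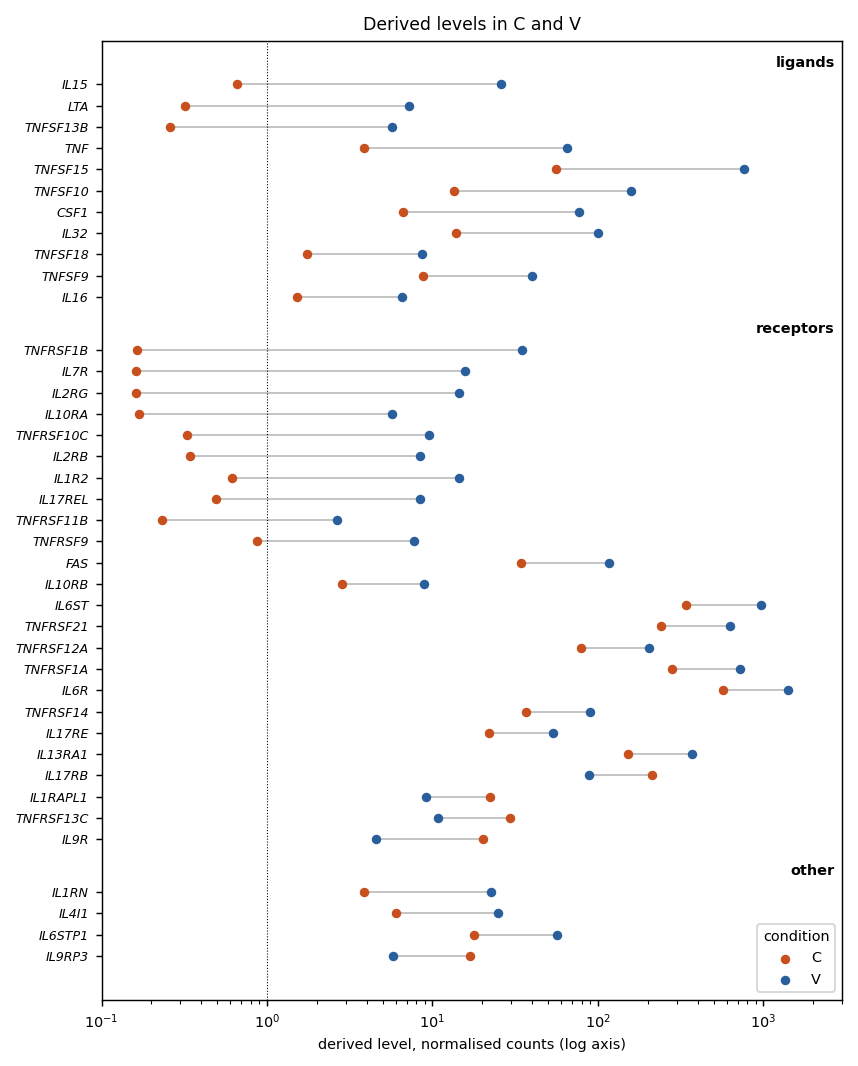
Derived level of each member in C and in V, in normalised counts on a log axis, with the dotted line at 1; a grey line joins the values of a gene. The ligands in V reach from 5.71 to 765, several receptors fall below 1 in C, and the receptors IL6R, IL6ST, TNFRSF1A and TNFRSF21 stay at 241 or more on both sides.

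Receptors ranged from high levels on both sides to levels near 0 in C, with several in between. Of the 7 receptors with a mean of at least 100 in the authors' deposited table, 6 were lower in C, by between -1.51 and -1.27 on the log2 scale (median -1.37), beside a median of -1.71 over all listed protein-coding genes of such levels called higher in V. These changes lie close to the limit of 1.20 at which the table begins, so smaller changes in other receptors would not be listed. The ligands with a mean of at least 10, 7 in number, had a median of -3.57 in the authors' deposited table, beside -2.01 over all listed protein-coding genes of such levels called higher in V.

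The receptor of IL6 was lower in C in both of its chains. IL6R, the chain that binds IL6, had derived levels of 568 normalised counts in C and 1410 in V and a change of -1.31 ± 0.10 in the authors' deposited table (adjusted p = 1.85e-40, Wald test in DESeq2). IL6ST encodes gp130, the signalling chain shared by IL6, LIF and related cytokines, and had 340 in C and 972 in V with a change of -1.51 ± 0.11 in the authors' deposited table (adjusted p = 2.17e-42, Wald test in DESeq2). In GENCODE release 29, IL6R (ENSG00000160712) lies at 154405193 to 154469450 on chromosome 1 and IL6ST (ENSG00000134352) at 55935095 to 55994993 on chromosome 5. Their 95% intervals, 2.18-fold to 2.83-fold and 2.46-fold to 3.31-fold lower in C, overlap. Per kilobase of exon the derived level was 88.0 in C and 219 in V for IL6R, and 36.6 in C and 105 in V for IL6ST. The processed pseudogene IL6STP1 on chromosome 17 changed alongside it (-1.67 ± 0.33 by the authors' deposited table). Its derived level was 5.22% of that of IL6ST in C and 5.82% in V, and reads of the parent gene may be counted in it.

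Receptors of the TNF superfamily with broad expression were lower in C as well. TNFRSF1A, the death domain receptor of TNF, had derived levels of 280.1 in C and 725 in V and a change of -1.37 ± 0.09 in the authors' deposited table (adjusted p = 9.19e-56, Wald test in DESeq2). TNFRSF21, death receptor DR6, had 241 in C and 626 in V and a change of -1.38 ± 0.10 in the authors' deposited table (adjusted p = 4.77e-40, Wald test in DESeq2). TNFRSF12A, the receptor of the ligand TWEAK, had 78.5 in C and 203 in V (-1.37 ± 0.16 by the authors' deposited table). The 3 fitted changes differ by far less than their standard errors. Per kilobase of exon, derived levels of TNFRSF1A and TNFRSF21 were 69.9 and 67.0 in C and 181 and 174 in V.

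FAS, the receptor of the apoptosis-inducing Fas ligand, had a larger fitted change, whose 95% interval of -2.19 to -1.35 on the log2 scale overlaps theirs. Its derived levels were 34.4 in C and 117 in V, with -1.77 ± 0.22 in the authors' deposited table (adjusted p = 2.36e-15, Wald test in DESeq2). FAS overlaps ACTA2, which lies on the opposite strand and was also higher in V (-1.89 ± 0.46 by the authors' deposited table), and whether the counting used strand is not given in the sources used here. TNFRSF14, the receptor HVEM, had 36.8 in C and 89.7 in V and -1.29 ± 0.28 in the authors' deposited table.

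TNFRSF1B, the second TNF receptor and one best known from leukocytes, was at lower derived levels than TNFRSF1A on both sides. In GENCODE release 29, TNFRSF1B (ENSG00000028137) lies at 12167003 to 12209228 on chromosome 1 and TNFRSF1A (ENSG00000067182) at 6328757 to 6342114 on chromosome 12. TNFRSF1B stood at a derived 0.164 normalised counts in C and at 34.9 in V, with a listed change of -7.73 ± 1.23 in the authors' deposited table (adjusted p = 2.24e-09, Wald test in DESeq2). The derived C levels of TNFRSF1B, IL7R, IL2RG and IL10RA lay between 0.161 and 0.168, within a narrow band from 0.15 to 0.20 that holds 313 of the listed genes higher in V. Members in this band lie on the lower edge of the cloud in the plot of all listed genes, where the fold change is set by the V level, so their fold changes are no measure of size.

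**Figure D3:**
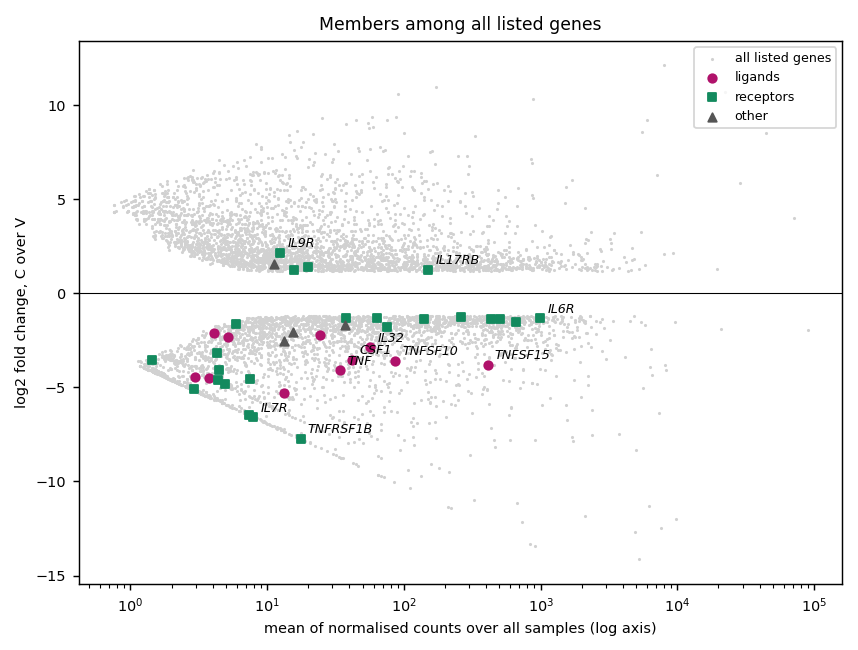
Listed mean of normalised counts over all samples (x, log axis) against listed log2 fold change of C over V (y) for all 6018 listed genes in grey and the members in colour by role. The empty strip around 0 is the limit of 1.20 on the listed genes; the broad receptors lie just beneath it, TNFSF15 and TNFSF10 well below, and TNFRSF1B and IL7R on the lower edge.

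Receptor chains of the common gamma chain family were at low levels. IL7R, which binds IL7 on lymphocytes, had derived levels of 0.162 in C and 15.6 in V (-6.60 ± 1.29 by the authors' deposited table). IL2RG, the common gamma chain itself, had 0.161 in C and 14.5 in V (-6.49 ± 1.30 by the authors' deposited table). IL2RB, which IL2 and IL15 share, had 0.342 in C and 8.36 in V (-4.61 ± 1.36 by the authors' deposited table). These 3 were called and lower in C, but their sizes are poorly determined. IL9R, a further chain of the family, went the other way, with 20.3 in C and 4.55 in V (2.15 ± 0.50 by the authors' deposited table; adjusted p = 6.69e-05, Wald test in DESeq2). Its pseudogene IL9RP3 on chromosome 16 was likewise higher in C (1.55 ± 0.47 by the authors' deposited table). Per kilobase of exon the derived level was 10.0 in C and 3.43 in V for IL9RP3, and 8.09 in C and 1.82 in V for IL9R. Reads of either gene may be counted in the other, so the change of IL9R is uncertain too.

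Low-level receptors of other families were also lower in C. They were the IL10 binding chain IL10RA (-5.08 ± 1.47 by the authors' deposited table), the TRAIL decoy TNFRSF10C (-4.84 ± 1.38), the IL1 decoy IL1R2 (-4.55 ± 1.34), IL17REL (-4.08 ± 1.35) and the T cell costimulatory receptor TNFRSF9 (-3.15 ± 1.12). Their derived V levels ran from 5.67 for IL10RA to 14.4 for IL1R2, and their derived C levels were all under 1. TNFRSF11B, which encodes the decoy osteoprotegerin, and IL10RB, the shared second chain of the IL10 receptor, were not called (adjusted p = 0.0601 and 0.0804 in the authors' deposited table, Wald test in DESeq2).

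Most called markers of other cell types were, like these receptors, lower in C. Of 16 leukocyte markers, 6 were listed and 5 called, all 5 higher in V, with a summed derived level of 3.08 normalised counts in C and 113 in V over the 6. PTPRC, the general leukocyte marker, had, by the authors' deposited table, a derived 0.164 in C and 35.7 in V, close to those of TNFRSF1B. The T and B cell markers CD3D, CD3E, CD4, CD8A, MS4A1 and CD79A had no row, nor did NKG7, CD163 and CSF1R. All 3 listed endothelial markers of 10 were called higher in V too, with a summed derived level of 5.16 in C and 59.1 in V. Of 10 fibroblast markers 3 were called, PDGFRB higher in C, COL1A1 and ACTA2 higher in V, with sums of 91.0 in C and 329 in V. Of all listed protein-coding genes 92.6% were called, and 65.9% of those called were higher in V. The counts of markers are to be read against these shares, and being called says little about a marker. All libraries are described as cultures of the parental line or the selected subline, with no other cell type named. The marker levels are thus RNA levels in these cultures. They do not show that leukocytes, endothelial cells or fibroblasts were present. Why these markers changed alongside the low-level receptors was not tested. Of 12 markers of the prostate luminal line, KLK2 and KLK3 were called on the C side, KRT8 was called on the V side, at a summed derived level of 19332 in C and 7545 in V.

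The IL17 receptor family was divided. IL17RB, a receptor of the cytokine IL25, had derived levels of 213 in C and 88.7 in V and a change of 1.27 ± 0.18 in the authors' deposited table (adjusted p = 4.07e-12, Wald test in DESeq2). The gene (ENSG00000056736) lies at 53846580 to 53865800 on chromosome 3. It was the sole member with a mean of at least 100 that was higher in C, 2.41-fold with a 95% interval of 1.90 to 3.05. IL17RE, the epithelial receptor of IL17C, had 21.9 in C and 53.1 in V (-1.28 ± 0.49 by the authors' deposited table; adjusted p = 0.0211, Wald test in DESeq2). IL13RA1, the IL13 binding chain, was again lower in C, at 153 in C and 369 in V (-1.27 ± 0.12 by the authors' deposited table; adjusted p = 1.62e-25, Wald test in DESeq2).

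Beside IL17RB and IL9R, 2 further receptors were higher in C. TNFRSF13C, the BAFF receptor of B cells, had derived levels of 29.2 in C and 10.9 in V (1.43 ± 0.46 by the authors' deposited table; adjusted p = 0.00601, Wald test in DESeq2). IL1RAPL1, a synaptic adhesion protein of the IL1 receptor family, had 22.2 in C and 9.19 in V (1.27 ± 0.43 by the authors' deposited table; adjusted p = 0.00823, Wald test in DESeq2). Their 95% intervals of the fold were 1.43 to 5.05 and 1.35 to 4.31. IL1RAPL1 overlaps a sense intronic transcript and a small nucleolar RNA on its own strand that are also listed, so its reads are uncertain.

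IL1RN, the secreted antagonist of the IL1 receptor, had derived levels of 3.88 in C and 22.7 in V (-2.55 ± 0.62 by the authors' deposited table; adjusted p = 0.000149, Wald test in DESeq2). IL4I1, a secreted amino acid oxidase, had 6.06 in C and 24.9 in V (-2.04 ± 0.48 by the authors' deposited table; adjusted p = 8.07e-05, Wald test in DESeq2). IL4I1 overlaps NUP62 and ATF5 in GENCODE release 29, so its reads are uncertain. The same limit holds for IL2RG, TNFRSF10C and IL10RB, which overlap a protein-coding gene on their own strand. TNFRSF12A and IL16 overlap one on the opposite strand, CLDN6 and STARD5.

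Ligands and their known receptors were set side by side for 21 pairs. In 9 pairs both genes were called on the same side, lower in C: TNF and LTA each with TNFRSF1A and TNFRSF1B, LTA with TNFRSF14, IL15 with IL2RB and IL2RG, TNFSF9 with TNFRSF9, and TNFSF10 with the decoy TNFRSF10C. In 1 pair they were called on opposite sides, the ligand TNFSF13B being lower and its receptor TNFRSF13C higher in C. In the other 11 pairs at least 1 gene had no row or was not called; TNFRSF25, the receptor of TNFSF15, and IL6 itself had no row. Pairs that share a gene are not independent. All 10 called ligands and 18 of the 22 called receptors were lower in C, so most pairs of called genes would fall on the same side. The count of such pairs therefore says little about pairing. Of all listed protein-coding genes, 61.0% were called higher in V. The receptors IL17RB, IL9R and IL1RAPL1, all higher in C, were in none of the pairs.

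Among the genes around these receptors, the called members of the NF-kB and JAK-STAT lists were all lower in C. All 8 called of the 20 NF-kB subunits and inhibitors were lower in C, with a median log2 fold change of -2.37 among called members. They included NFKBIZ (-4.01 ± 0.17 by the authors' deposited table) and the deubiquitinase TNFAIP3 (-4.34 ± 0.19). Also among them were TNIP1, the partner of TNFAIP3 (-1.85 ± 0.10), and the coactivator BCL3 (-2.93 ± 0.17). All 6 called of 24 TNF receptor adaptors and kinases were lower in C, among them BIRC3 (-6.71 ± 0.16 by the authors' deposited table), an inhibitor of apoptosis bound to the receptor complex, MAP3K14 (-2.17 ± 0.12), the kinase of the alternative NF-kB pathway, the deubiquitinase CYLD (-1.50 ± 0.11) and BIRC2 (-1.27 ± 0.13). Of the 14 genes of the IL1 and toll pathway 4 were called, all lower in C: PELI2 (-2.73 ± 0.24 by the authors' deposited table), PELI1 (-1.52 ± 0.20), IRAK2 (-1.92 ± 0.28) and the IL1-processing protease CASP1 (-7.18 ± 1.24). These counts are to be read against the listed protein-coding genes, of which 31.6% were called on the C side and 61.0% on the V side.

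All 6 called of 22 JAK-STAT genes were lower in C as well. By p-value, the kinase JAK2 came first, with derived levels of 92.1 in C and 900 in V (-3.29 ± 0.12 by the authors' deposited table), followed by STAT5A (-1.26 ± 0.16), JAK3 (-5.61 ± 0.87), the kinase partner of the common gamma chain, and the feedback inhibitor SOCS1 (-5.09 ± 0.91). Derived C levels of JAK3 and SOCS1 were only 1.16 and 0.911, so the sizes of their changes are poorly determined. JAK1, TYK2 and STAT3 had no row. Of 12 death receptor effectors 4 were called, 3 lower in C and 1 higher. Among all called protein-coding genes of the table, 65.9% were lower in C, so 3 of 4 says little about these effectors. The JAK-STAT count is to be read against the same share. The initiator CASP10 (-1.92 ± 0.23 by the authors' deposited table) was among those lower in C, and TNFAIP8L1 (2.28 ± 0.34) was higher.

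Cytokines and receptors outside the symbol rule were called on both sides. Of 16 such ligands 6 were called, 5 lower in C, namely KITLG, the ligand of the receptor KIT (-4.09 ± 0.22 by the authors' deposited table), LIF, which signals through IL6ST (-3.06 ± 0.19), TGFB1 (-4.67 ± 1.24), CLCF1 (-4.07 ± 1.12) and TSLP (-3.44 ± 0.97), and 1 higher, CNTF (1.47 ± 0.46). Of 22 receptors 4 were called, 3 lower in C and 1 higher. These counts of ligands and receptors stand beside 65.9% lower in C among all called protein-coding genes of the table, so they say little about direction. Those lower in C were IFNGR1, a chain of the interferon gamma receptor (-1.50 ± 0.15 by the authors' deposited table), CSF3R (-6.65 ± 1.10) and CSF2RB (-5.43 ± 1.13). Derived C levels of CSF3R and CSF2RB were only 0.585 and 0.616, so the sizes of their changes are poorly determined.

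**Figure D4:**
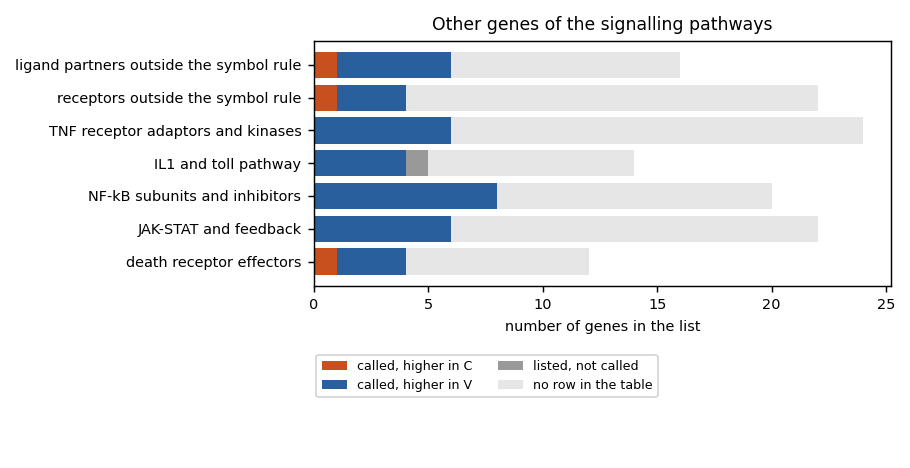
Number of genes in each of 7 lists of partners and signalling genes (x axis), divided into called and higher in C, called and higher in V, listed but not called, and without a row in the table. Of the NF-kB genes, 0 are called toward C and 8 toward V, and most genes of each list have no row.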

How the data were processed

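The measurements are RNA sequencing of 3 libraries of the abiraterone-selected subline and 3 of parental C4-2B cells, read as 50 bp single ends from 1 µg of total RNA, per the labels' protocols. The only file used is the authors' DESeq2 result. Its mean column is a signal value, the average over all samples of counts normalised by the authors, per the file headers. Log2 fold changes (C over V) are maximum likelihood estimates of the authors, with the standard error and the Wald statistic as score columns beside them, per the file headers. Both the p-value and its Benjamini-Hochberg adjusted form come from the authors' Wald test, per the file headers. The submitters' processing notes name FastQC and Cufflinks 2.2.1 but not what they did. For aligner, counter and genome build the answer is not given in the sources used here. Depth per library is unknown.

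The tests planned for values per library could not be run on a table of the authors' own comparison, so no test was run here and listed values are described. An adjusted p of 0 beside a larger p (4 genes, no member) was read as not given. All 39 members' p-values were recomputed from the Wald statistic to within 1%. Levels were derived as described, which was tested on simulated data. Intervals are 95% (normal). Positions, gene types and exon lengths came from GENCODE release 29 (GRCh38), which held all 39 members and need not be the authors' annotation; 126 protein-coding symbols there meet the rule, of which 89 had no row. Promoters came from RefSeq (GRCh38.p14). Python 3.11.15, pandas 2.3.3 and scipy 1.17.1 were used. The members, lists, pairs and motifs were chosen with earlier results of these data known. In the receptor list, ST2 is an older name that matches no symbol. Every called member is named, with members not called given by adjusted p, and from each pathway list up to 4 called genes of smallest p are named; further called genes of the partner lists were named after their values were seen. Some genes of the lists are counted but not reported here by name.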

Additional observations from a re-analysis of the deposited data

How the results depend on the processing

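The direction of every member is fixed by the table, so only the calls could change. Requiring an adjusted p under 0.01 left 5 members higher in C and 28 members higher in V, and protein-coding genes only left 4 and 30. With an unadjusted p under 0.05, all 39 members counted, 5 higher in C and 34 higher in V. With a log2 change of 2 or more in either direction, 1 was left higher in C (IL9R), 21 higher in V, and 10 receptors. With a mean of at least 10, 20 were left higher in V, and 14 receptors. With a mean of at least 100, 1 was left higher in C, 7 higher in V, 1 ligand (TNFSF15) and 7 receptors. With a 95% interval beyond 1 in size, 1 was left higher in C (IL9R) and 27 higher in V. The calls of TNFSF18, TNFRSF9 and IL17RE ended both with an adjusted p under 0.01 and with that interval limit. Few reads limit the 12 called members whose derived C level is under 1. No paired analysis was possible because the table holds no value per library, and for the same reason no library could be left out and no pseudocount or filter on low values could be varied.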
